A study of Mus musculus with 12 samples.

Results

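The comparison described here is KY-2 against KY-1 when both mouse natural killer (NK) cell lines carried a vector for the transcription factor Myb. It took 7 of the series' 12 Affymetrix arrays, chosen by their labels as 3 KY-2 and 4 KY-1 arrays with the Myb vector. Both lines are labelled as lacking p53, both were cultured in 200 U/mL human IL-15, and the Myb vector encoded green fluorescent protein (GFP), a P2A peptide and then Myb with a FLAG tag. GFP-positive cells were sorted, and total RNA was measured. The other 5 arrays, 2 of KY-2 and 3 of KY-1, had the same genotype, culture and sort but a vector for GFP alone, and they served to ask whether a line difference was present without added Myb. A difference here is one between 2 individual cell lines, whose derivation is not given in the sources used here.

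NK cells are innate lymphocytes that kill target cells by releasing perforin and granzymes and that secrete interferon gamma and chemokines. They recognise targets through lectin-like receptors encoded together in the NK gene complex, immunoglobulin-like receptors such as NKp46, and adaptors with ITAM motifs, and IL-15 keeps them alive through the IL-2 receptor beta chain and STAT5. T-bet and Eomes are the T-box factors that direct their identity. Myb is a DNA-binding factor of blood progenitors, and the series belongs to work on how Myb and microRNA-15/16 act on NK cell maturation. With added Myb in both lines, the comparison asks which differences are present at a similar Myb level.

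Values are on a log2 scale, with 1 summary per probe set and array, so a difference of 1 is a 2-fold difference and values of different probe sets are not levels on one scale. The 12 array medians lay between 5.31 and 5.42, and a level near or under them is called low here, because no detection calls came with the values. Before averaging, arrays of a group were compared: KY-1 Myb arrays 3 and 4 differed from each other with a robust SD of 0.0433 and KY-1 GFP arrays 1 and 2 with 0.0469, against 0.102 to 0.172 for other pairs within groups. Each close pair was counted as 1 sample, which left 3 Myb samples per line and 2 GFP samples per line. The labels do not tell whether replicates came from separate cultures. The p-values therefore reflect the spread among these samples alone, and that spread may be technical. Of the NK markers, Gzmb stood between 12.09 and 12.33 on all 7 Myb arrays, Fcer1g between 12.38 and 12.65, Nkg7 between 12.16 and 12.39 and Il2rb between 10.90 and 11.64. Ncr1, which encodes NKp46, stood at 7.61 to 7.96 in KY-1 but at 5.29 to 5.39 in KY-2, near the array medians. The Y-linked gene Eif2s3y was at 8.66 to 8.81 in KY-1 and 8.41 to 8.56 in KY-2, and Xist lay between 3.28 and 3.73 on all Myb arrays.

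Myb itself (probe set 10368199, chromosome 10) was at nearly one level in both lines. It stood at 9.59, 9.57, 9.55 and 9.54 in KY-1 and at 9.80, 9.67 and 9.75 in KY-2. The KY-2 arrays lay above all KY-1 arrays by a small margin, with a difference of 0.17 ± 0.07 (SE, 3 samples per line) and a 95% interval of 0.01 to 0.33, or 1.13-fold. It did not pass the test after Benjamini-Hochberg adjustment in limma (adjusted p = 0.094). With the GFP vector the lines differed by -2.94, KY-1 being 7.65-fold above KY-2. The probe set does not separate the cells' own Myb transcript from the vector's.

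A total of 6305 of 19938 genes differed between the lines with the Myb vector (31.6%; limma, adjusted p under 0.05), 2935 higher in KY-2 (14.7%) and 3370 lower (16.9%). Most differences were small: the median size among the called genes was 0.48 on the log2 scale, and 85.7% of them were under 2-fold. At least 4-fold differences were found for 165 genes higher and 80 lower in KY-2, and at least 16-fold for 23 and 11. For 7948 genes (39.9%) the 3 KY-2 arrays did not overlap the 4 KY-1 arrays. The median difference over all genes was -0.01.

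Most of these differences were present without added Myb. The GFP arrays, which share no array with the Myb comparison but share its residual variance per gene, gave 5757 called genes (28.9%). Of the Myb calls 71.8% were called in the same direction with GFP, and of the GFP calls 78.7% were called in the same direction with Myb, which makes 4530 genes. Over the 19938 genes the line differences with the vectors had a Pearson r of 0.904, given as a description across genes that share arrays and probe design. Among the 245 called genes with at least a 4-fold difference, 242 were called the same way with GFP. The test of the change between vectors passed for 168 genes (0.843%), of which 38 were among those 245.

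**Figure D1:**
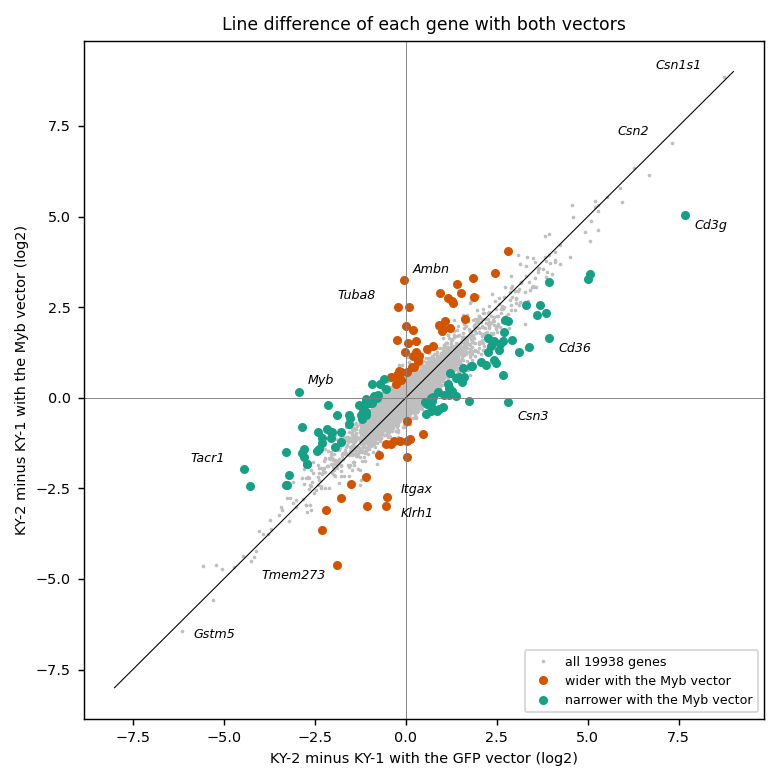
Each point is a gene, with KY-2 minus KY-1 on the log2 scale with the GFP vector on the x axis and with the Myb vector on the y axis; the diagonal marks equal differences. Orange points (62 genes) had a wider and green points (106 genes) a narrower line difference with the Myb vector, and the casein genes Csn1s1 and Csn2 lie on the diagonal at the far upper right.

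Milk proteins led the genes higher in KY-2. Csn1s1, which encodes alpha-S1 casein, stood at 12.17, 12.29 and 12.21 in KY-2 and at 3.20, 3.35, 3.54 and 3.56 in KY-1, a difference of 8.86 ± 0.12 (SE; limma adjusted p = 3.42e-12). Csn2, which encodes beta casein, stood at 12.43, 12.53 and 12.33 against 5.27 to 5.52, a difference of 7.04 ± 0.08. Csn1s2a, an alpha-S2 casein, stood at 8.94, 9.23 and 8.94 against 3.36 to 4.0. The arrays of the lines lay far apart for all 3 genes, and the KY-1 values are near or under the array medians. The test of the change between vectors did not pass for any of the 3 (adjusted p = 0.887, 0.523 and 0.241).

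The casein genes stand side by side on chromosome 5, together with genes of saliva and tooth enamel, and only some members of that neighbourhood differed between the lines. Of its 17 tested genes, 4 were called higher in KY-2 (Csn1s1, Csn2, Csn1s2a and Ambn) and 0 lower, and 12 were low in both lines. Over all genes 14.7% were higher and 16.9% lower. Csn1s2b, the next gene to Csn1s2a, was at 4.0 in KY-1 and 4.04 in KY-2. The neighbourhood was picked out after its values were seen.

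In the mammary gland, casein promoters are textbook targets of STAT5, the factor that IL-15 also activates in NK cells. The upstream sequences of the 3 caseins that differed are shown for that reason, from the RefSeq promoter table (GRCm38.p6), as the 150 bases before the annotated start, 5′ to 3′ on the gene's strand. They lie at chr5:87666058-87666207 (plus strand, Csn1s1), chr5:87699426-87699575 (minus strand, Csn2) and chr5:87774300-87774449 (plus strand, Csn1s2a). Capitals mark matches to TTCNNNGAA, the palindromic STAT5 motif searched on both strands.
Csn1s1: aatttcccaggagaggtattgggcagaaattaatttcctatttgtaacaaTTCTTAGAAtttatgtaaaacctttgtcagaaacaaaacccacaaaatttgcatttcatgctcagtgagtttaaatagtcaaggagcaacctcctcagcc
Csn2: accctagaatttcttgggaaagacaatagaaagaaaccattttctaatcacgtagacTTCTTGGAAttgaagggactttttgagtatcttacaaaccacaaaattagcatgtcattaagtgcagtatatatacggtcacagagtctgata
Csn1s2a: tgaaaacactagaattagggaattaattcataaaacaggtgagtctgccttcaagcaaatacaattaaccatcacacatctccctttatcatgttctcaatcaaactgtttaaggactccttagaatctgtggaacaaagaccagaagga
The match starts 100 bases upstream in Csn1s1 and 93 bases upstream in Csn2, and the 250 bases upstream of Csn1s2a hold none. Of the 27025 genes in the table, 2197 (8.13%) hold the motif in that window, and a match describes letters only.

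The other genes highest in KY-2 were of mixed function. Trgv1, a variable segment of the T cell receptor gamma locus, stood at 10.37, 10.44 and 10.27 in KY-2 and 3.97 to 4.13 in KY-1, a difference of 6.35 ± 0.09. Klhl4, a kelch-like gene on the X chromosome, differed by 6.16 ± 0.09, from 3.41 to 3.78 in KY-1 to 9.75 to 9.89 in KY-2. Fabp5, a fatty acid binding protein, differed by 5.78 ± 0.10, and its other probe set by 5.78. The arrays of the lines lay far apart for all of them.

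Lcn2, the siderophore-binding lipocalin 2, differed by 5.54 ± 0.11, with KY-1 at 4.18 to 4.76 and KY-2 at 10.06 to 10.22. Cd63, a tetraspanin of lysosome and granule membranes, differed by 5.42 ± 0.12 and Calu, a calcium-binding protein of the secretory pathway, by 5.32 ± 0.08. Ppargc1a, the PGC-1 alpha coactivator of mitochondrial biogenesis, stood at 9.37 to 9.47 in KY-2 and 4.03 to 4.54 in KY-1. Cd8a and Cd28, a coreceptor and a costimulatory receptor of T cells, were higher by 5.41 ± 0.09 and 5.27 ± 0.10. None of these passed the test of the change between vectors.

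Among genes lowest in KY-2, the glutathione transferase Gstm5 differed most. It stood at 10.62, 10.56, 10.60 and 10.61 in KY-1 and at 4.17, 3.82 and 4.50 in KY-2, a difference of -6.43 ± 0.16 (SE; limma adjusted p = 2.28e-10). Dkkl1, a dickkopf-like protein known from sperm, differed by -4.72 ± 0.10, Tdrkh, a Tudor-domain protein of the germ-line piRNA pathway, by -4.67 ± 0.09, and Rbm44, a germ-cell RNA-binding protein, by -3.66 ± 0.12. These 3 are genes best known from germ cells and were bright in KY-1, at 7.52 or more, with KY-2 at 3.31 to 5.24.

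Several of the others are blood cell genes. Cd52, a small glycoprotein on lymphocytes, stood at 11.33 to 11.49 in KY-1 and 6.87 to 7.14 in KY-2, so that KY-2 kept a level above the array medians. Pram1, an adaptor of myeloid cells, differed by -4.60 ± 0.11 and Klri1, an NK lectin-like receptor, by -4.50 ± 0.11. Lpl, lipoprotein lipase, was at 8.96 to 9.09 in KY-1 and 4.56 to 4.93 in KY-2, and Prdx4, an endoplasmic reticulum peroxiredoxin, differed by -4.36 ± 0.16. Eps8l3, Tmem273 and the granzyme Gzmd completed the 12 lowest, at -4.64 ± 0.12, -4.61 ± 0.14 and -3.66 ± 0.09 (SE).

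**Figure D2:**
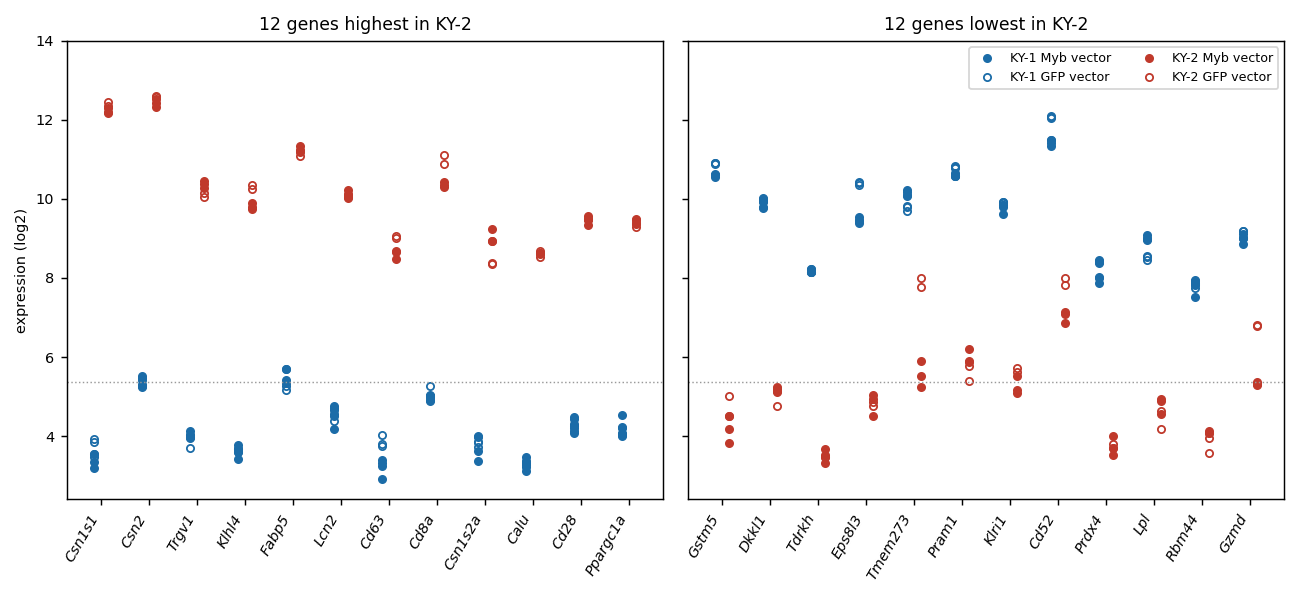
Expression on the log2 scale (y axis) of the 12 genes highest and the 12 lowest in KY-2 (x axis), with 1 point per array, filled for the Myb vector and open for the GFP vector, blue for KY-1 and red for KY-2. The dotted line is the median over all probe sets and arrays, 5.37, and for each of the 24 genes the red and blue filled points do not overlap.

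Low in one line on every array and bright in the other describes few genes. For 18 genes the 4 KY-1 Myb arrays were all under 5.37, the median over all probe sets, and the 3 KY-2 arrays all over 8, and for 8 genes the reverse held. All 26 were called in the same direction with the GFP vector. Beside genes already named, the 18 included Enpep, an aminopeptidase of angiotensin processing, at 9.33 to 9.40 in KY-2, Timp3, an inhibitor of matrix metalloproteinases, at 9.05 to 9.20, Galnt3, an enzyme that starts O-glycosylation, at 8.96 to 9.14, and Ncoa1, a nuclear receptor coactivator, at 8.82 to 8.94. Fads2, Cd2ap, Clec4e and the olfactory receptor Olfr1258 were the rest. The 8 included Dusp4, a phosphatase of MAP kinases, at 8.34 to 8.54 in KY-1, and 2 transcripts without a gene name, 1700012B07Rik and 2210016F16Rik. With the thresholds set after the values were seen, these counts are a description.

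The list of activating NK receptors, their relatives and ITAM signalling genes had members called in both directions. Of 20 tested, 9 were higher and 7 lower in KY-2, against 14.7% and 16.9% of all genes, and the list's median was 0.12. Over the 11259 genes whose highest group mean was above 5.37, the shares were 22.9% and 26.9%. Both pairs of shares are the background for each list count that follows. Tigit, an inhibitory receptor for nectins that this list shares with the checkpoint list, stood at 8.96 to 9.11 in KY-2 and 6.34 to 6.62 in KY-1, a difference of 2.55 ± 0.09, against 3.29 with GFP (change: limma adjusted p = 0.0453). Crtam, a nectin-like receptor, was higher by 1.39 ± 0.10 with Myb and 3.38 with GFP (change: adjusted p = 0.000112), while Cd226, which shares its ligands with Tigit, was lower by -1.31 ± 0.09. Ncr1 differed by -2.43 ± 0.15 with Myb and by -4.29 with GFP, and the change between vectors passed (limma adjusted p = 0.00365).

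Lectin-like receptors went both ways within one cluster of neighbours. Of 19 tested, 6 were higher and 9 lower in KY-2, with a median of 0.04. Klrc1, which encodes NKG2A, stood at 10.52 to 10.67 in KY-2 and 6.71 to 7.17 in KY-1, a difference of 3.75 ± 0.11, while Klrc2 and Klrc3 differed by -1.0 and -2.06. Klrd1, the CD94 partner of the NKG2 proteins, was bright in both lines, at 11.83 to 11.95 in KY-1 and 10.99 to 11.02 in KY-2. Klrb1a was higher by 2.68 ± 0.15 and Klrb1f by 1.26, and Klrb1b was lower at -0.43. For Klrb1f the difference with GFP was 0.28, and the change between vectors passed (limma adjusted p = 0.00309). Across the NK gene complex on chromosome 6, a stretch chosen after its values were seen, 5 of 39 tested genes were higher and 16 lower in KY-2. The shares over all genes were 14.7% higher and 16.9% lower. Over the 50 neighbouring genes above 5.37 that include Klrc1, the median was -0.24, with 7 higher and 25 lower. Probe sets for these families can read near-identical members, so which member a value belongs to is uncertain.

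Of 17 Ly49 receptor genes listed, 6 were tested and the other 11 were not analysed here. Of the 6, 5 were under the array medians in KY-1, 0 were higher and 2 lower in KY-2. Klra5 was the tested member above the array medians, at 10.77 to 11.22 in KY-1 and 10.77 to 10.92 in KY-2, and did not pass (adjusted p = 0.189). Among SLAM receptors and SAP adaptors, 3 of 12 were higher and 2 lower, among them Cd48 at -0.56 ± 0.07 and Cd244a, its receptor, at 0.29 ± 0.08. Checkpoint and costimulatory receptors had 8 of 21 higher and 4 lower, led by Cd28 and Tigit, with Havcr2, which encodes TIM-3, higher by 1.40 ± 0.12 and Lilrb4a lower at -1.82 ± 0.13.

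Cytotoxic granule genes had 3 of 19 members higher and 8 lower in KY-2, with a median of -0.16. Prf1, the pore-forming perforin, stood at 9.5, 9.65 and 9.69 in KY-2 and at 8.22 to 8.41 in KY-1, a difference of 1.26 ± 0.08, against 2.26 with GFP (change: limma adjusted p = 0.00319). Gzmb differed by 0.09 and Gzma by 0.03, and neither passed (adjusted p = 0.378 and 0.788). For Gzma the line difference with GFP was 0.74, and the change between vectors passed (adjusted p = 0.0128). Unc13d, which primes granules for release, was lower by -1.42 ± 0.11.

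Of the 8 lower granule genes, 4 were granzymes of one chromosome 14 cluster, and the others were Unc13d, Rab27a, Stx11 and Nkg7. Gzmd stood at 9.10, 8.85, 9.0 and 9.02 in KY-1 and at 5.29, 5.38 and 5.33 in KY-2. Gzmg and Gzme differed by -1.64 each, and Gzmc, bright in both lines, by -0.35. Mcpt8, a basophil protease gene in the same cluster, differed by -3.00 ± 0.16. Of the cluster's 13 tested genes 0 were higher and 5 lower, against 14.7% and 16.9% of all genes. The region was shifted as well: over the 50 neighbouring genes above 5.37 that include Gzmd, the median was -0.38, with 6 higher and 29 lower. This stretch was chosen after its values were seen, and its granzymes are similar enough in sequence for probe sets to read more than 1 of them. The granzyme inhibitor Serpinb9b was higher by 1.48 ± 0.09, and of 6 such serpins 1 was higher and 2 lower. Serpinb9b differed by 2.59 with GFP (change: limma adjusted p = 0.00319).

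T cell genes were uneven in KY-2. Of 20 CD3 and T cell receptor genes, 8 were higher and 1 lower, with a median of 0.16, and 12 were under the array medians in KY-1. Cd3g stood at 12.20, 12.13 and 12.25 in KY-2 and at 7.16, 6.92, 7.38 and 7.30 in KY-1, a difference of 5.05 ± 0.19. Camk4, a calcium-dependent kinase, was higher by 2.15 ± 0.10 and Cd3d by 0.55. For Cd3d the difference with GFP was 1.39, and the change between vectors passed. Cd8a and Cd28, named above, are on this list. Cd8a was at 10.29 to 10.43 in KY-2 and 4.9 to 5.03 in KY-1, and Cd28 at 9.34 to 9.56 and 4.08 to 4.49. Other members were not bright in KY-2. Cd3e was somewhat above the array medians in both lines, at 5.57 to 5.80 in KY-2 and 5.60 to 6.18 in KY-1. Cd4 was low at 4.13 to 4.39 in KY-2, and Cd8b1 at 4.18 to 4.48. Thy1, carried by T and NK cells, was bright in both, at 12.10 to 12.30 over the 7 arrays. In bulk RNA, fewer cells of a type and less RNA per cell cannot be told apart.

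Few markers of other blood cells were called. B cell and plasma cell genes had 2 of 16 higher and 1 lower, including the plasma cell gene Sdc1 at 2.26 ± 0.09 and Cd72 at -1.56 ± 0.17. Myeloid genes had 3 of 21 higher and 1 lower, 19 of them being low in KY-1. Clec4d was higher by 2.76 ± 0.09 and Fcgr1 lower at -1.32 ± 0.09. For Clec4d the difference with GFP was 1.15, and the change between vectors passed (limma adjusted p = 0.000122). Erythroid and megakaryocyte genes had 1 of 12 higher, Gata1 at 0.74 ± 0.09, and stem and progenitor genes 3 of 18 higher and 1 lower, Kit. The level summed over the stem and progenitor list, on the linear scale, lay between 10.70 and 10.84 in log2 units on the KY-1 arrays and between 9.73 and 9.80 on the KY-2 arrays, without overlap. Kit alone, at 10.20 to 10.34 in KY-1 and 7.78 to 7.97 in KY-2, made up most of the KY-1 sum. The median difference over the list was -0.01, so the gap between the sums does not describe its other members. These 4 lists had a smaller share of called members than the 31.6% of all genes.

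Mast cell and basophil genes had 2 of 19 higher and 4 lower. Kit, the stem cell factor receptor, stood at 10.20 to 10.34 in KY-1 and 7.78 to 7.97 in KY-2, a difference of -2.43 ± 0.10, and Cpa3, a mast cell carboxypeptidase, differed by -1.74 ± 0.19. Alox5, the leukotriene-forming lipoxygenase, was higher by 3.19 ± 0.08, against 3.93 with GFP (change: limma adjusted p = 0.0167). The list's summed level lay between 10.77 and 10.83 in log2 units on the KY-1 arrays and between 9.60 and 9.72 on the KY-2 arrays, while that of the myeloid list lay between 9.12 and 9.20 against 9.28 and 9.31. Kit again made up most of the KY-1 sum of the mast cell and basophil list, whose median difference was -0.13. Whether a share of other cells took part was not tested. ILC2 and ILC3 genes had 2 of 13 higher and 4 lower, among them Rora at -0.94 ± 0.09. Rora differed by -1.77 with GFP (change: limma adjusted p = 0.0145).

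Epithelial, stromal and muscle genes had 7 of 22 higher and 1 lower, and the list holds the caseins. Its summed level lay between 12.12 and 12.22 on the KY-1 arrays and between 13.97 and 14.04 on the KY-2 arrays, and 14 members were low in KY-1 and 11 in KY-2. X inactivation and Y chromosome genes had 0 of 8 higher and 2 lower, Uty at -0.34 and Eif2s3y at -0.27.

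Chemokine ligands were the list with the largest share of higher members, 7 of 12, with 2 lower and a median of 0.44. Ccl3, an inflammatory chemokine, stood at 10.53 to 10.94 in KY-2 and 8.17 to 8.34 in KY-1, a difference of 2.54 ± 0.11. Xcl1, which draws cross-presenting dendritic cells, was higher by 1.83 ± 0.08, Ccl1 by 1.43 ± 0.12 and Ccl4 by 0.82 ± 0.09. With GFP, Ccl1 and Ccl4 differed by 2.35 and 1.57, and for both the change between vectors passed (adjusted p = 0.0456 and 0.0354). The change also passed for Ccl5, which differed by 1.25 with Myb and 3.11 with GFP.

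Cytokines were mixed. Of 23 tested, 9 were higher and 5 lower, and 11 were low in KY-1. Ifng, the interferon gamma gene, stood at 9.84 to 9.93 in KY-2 and 7.90 to 8.13 in KY-1, a difference of 1.94 ± 0.08. Osm, a STAT5 target in lymphocytes, was higher by 2.21 ± 0.09 and Il6 by 2.23 ± 0.10 from a low level, while Ltb, lymphotoxin beta, was lower by -2.21 ± 0.16. Of 16 STAT5 signalling and feedback genes, 5 were higher and 4 lower, with Stat3 at -0.66 ± 0.08 and Pim2 at 0.46 ± 0.08.

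Among 22 cytokine receptors 5 were higher and 8 lower, with a median of -0.20 with Myb and -0.04 with GFP. Il18r1, the IL-18 receptor, stood at 9.35 to 9.54 in KY-1 and 6.41 to 6.60 in KY-2, a difference of -2.90 ± 0.08. Il12rb1 and Tgfbr1 differed by -1.05 ± 0.08 and -1.26 ± 0.10, and Il2rb, the IL-15 receptor's beta chain, by -0.58. Of 14 chemokine and S1P receptors 3 were higher and 3 lower. Cxcr4 was higher by 2.0 ± 0.10, and Cxcr6 and Cxcr3 differed by -2.27 ± 0.07 and -1.57 ± 0.10. With GFP, Cxcr4 and Cxcr3 differed by 0.93 and -0.75. For both the change between vectors passed (limma adjusted p = 0.0093 and 0.0383).

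Integrins and adhesion genes had 5 of 22 higher and 9 lower. Itga1, a collagen receptor subunit of tissue-resident lymphocytes, was higher by 1.77 ± 0.09. Itga4, a subunit of the VCAM-1 receptor, was lower by -2.19 ± 0.09, and the mucin Spn, which encodes CD43, by -2.40 ± 0.08. Spn differed by -3.25 with GFP (change: limma adjusted p = 0.00836). Death ligands and receptors had 3 of 12 higher and 6 lower, with Fasl at -0.90 ± 0.09, and the Bcl2 family 3 of 14 each way, with the BH3-only genes Bik at -2.50 ± 0.16 and Pmaip1 at 2.27 ± 0.15.

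Lineage factors split the lines at Eomes. It stood at 7.36, 7.28 and 7.47 in KY-2 and at 4.61 to 4.90 in KY-1, under the array medians, a difference of 2.66 ± 0.10 (limma adjusted p = 4.21e-09). Tbx21, which encodes T-bet, was lower by -0.77, at 7.50 to 7.70 against 8.16 to 8.46. Zeb2 and Ikzf2, zinc finger factors of lymphocyte differentiation, were higher by 2.25 ± 0.13 and 1.83 ± 0.08, and Ets1 was lower by -1.43 ± 0.11. Ikzf2 differed by 0.99 with GFP (change: limma adjusted p = 0.00977). Of 21 such factors, 5 were higher and 7 lower.

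The MYC network differed between members. Myc stood at 11.70 to 11.78 in KY-1 and 10.12 to 10.18 in KY-2, a difference of -1.58 ± 0.07, and Mycn at 6.73 to 6.85 against 8.86 to 9.05, a difference of 2.16 ± 0.08. Of the 12 members, 2 were higher and 5 lower. Among Myb family and cofactor genes, 3 of 8 were higher and 3 lower: the coactivator Crebbp at 0.64 ± 0.07, its relative Ep300 at -0.52 ± 0.07, Mybl2 at -0.72 ± 0.11 and Mybl1 at -0.38 ± 0.09. Activation factors of the Egr, Nr4a and AP-1 families had 6 of 24 higher and 5 lower, with Batf3 at 0.96 ± 0.08 and Batf at -0.94 ± 0.07.

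Cell division genes differed by small amounts, apart from Ccnd1. That gene, the G1 cyclin D1, stood at 9.11 to 9.23 in KY-2 and 4.63 to 5.54 in KY-1, a difference of 3.89 ± 0.17. G1 cyclins, kinases and inhibitors had 6 of 18 higher and 7 lower. DNA replication genes had 4 of 28 higher and 11 lower, with Tyms at -0.56 ± 0.07 and Rrm2 at 0.98 ± 0.07, and mitosis genes 8 of 26 each way, with Kif23 at 0.87 ± 0.07 and Tpx2 at -0.44 ± 0.06. Of 17 p53 target genes, 5 were higher and 2 lower, in lines that both lack p53. Of 19 reported microRNA-15/16 targets, 6 were higher and 3 lower, with a median of 0.04, and Cd28 and Ccnd1 gave the largest differences.

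Complex I subunits of the respiratory chain were more often higher than lower in KY-2. Of 30 tested, 13 were higher and 2 lower, with a median of 0.17. Ndufs8 stood at 11.01 to 11.13 in KY-2 and 9.65 to 9.74 in KY-1, a difference of 1.37 ± 0.07, and Ndufv1 differed by 1.12 ± 0.07. Sterol and fatty acid synthesis genes had 11 of 22 higher and 3 lower, with a median of 0.20: the desaturases Fads2 and Fads1 at 4.06 ± 0.09 and 1.05 ± 0.08, the elongase Elovl6 at 0.86 ± 0.07 and Dhcr7, the last step of cholesterol synthesis, at 0.89 ± 0.08. Glutathione and xenobiotic enzymes had 7 of 20 higher and 6 lower, with Gstm5 and Gstt2 among the lower. Mgst2 was higher by 1.58 ± 0.11 and Gclm, a subunit of the enzyme that limits glutathione synthesis, by 2.14 ± 0.18. With GFP, Fads2 and Mgst2 differed by 2.81 and 0.28. For both the change between vectors passed (limma adjusted p = 0.00117 and 0.00483).

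Other housekeeping lists moved little or in both directions. Cytosolic ribosomal proteins had 0 of 24 higher and 1 lower, Rpl30 at -0.32 ± 0.09, the smallest share of all 47 lists. Ribosome biogenesis genes had 7 of 25 higher and 11 lower, proteasome subunits 4 of 31 higher and 8 lower, endoplasmic reticulum chaperones 4 of 18 higher and 6 lower, amino acid response genes 3 of 19 higher and 4 lower, and glycolysis and hypoxia genes 5 of 23 each way. Adenosine and NAD ectoenzymes had 1 of 9 higher and 2 lower.

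Antigen presentation and interferon genes also split. Class II MHC genes had 5 of 9 higher and 0 lower, from low levels: H2-Aa stood at 5.28 to 5.68 in KY-2 and 3.76 to 4.25 in KY-1, and its line difference was 1.51 ± 0.14 with Myb and 0.07 with GFP (change: adjusted p = 0.00867). Class I and peptide loading genes had 3 of 15 higher and 5 lower, with Tapbpl at -1.02 ± 0.09. Of 21 interferon-stimulated genes, 3 were higher and 8 lower, including Oasl2 at -2.11 ± 0.08 and Zbp1 at -1.26 ± 0.08. Zbp1 differed by -0.55 with GFP (change: limma adjusted p = 0.0291). The Ifitm family had 1 of 7 higher and 4 lower: Ifitm1 stood at 12.77 to 12.83 in KY-2 and 9.40 to 9.60 in KY-1, a difference of 3.31 ± 0.07 against 1.86 with GFP (change: limma adjusted p = 9.2e-05), and Ifitm2 differed by -2.23 ± 0.09. These 2 genes are alike in sequence, and their other probe sets gave 3.67 for Ifitm1 and -1.60 and -1.80 for Ifitm2.

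**Figure D3:**
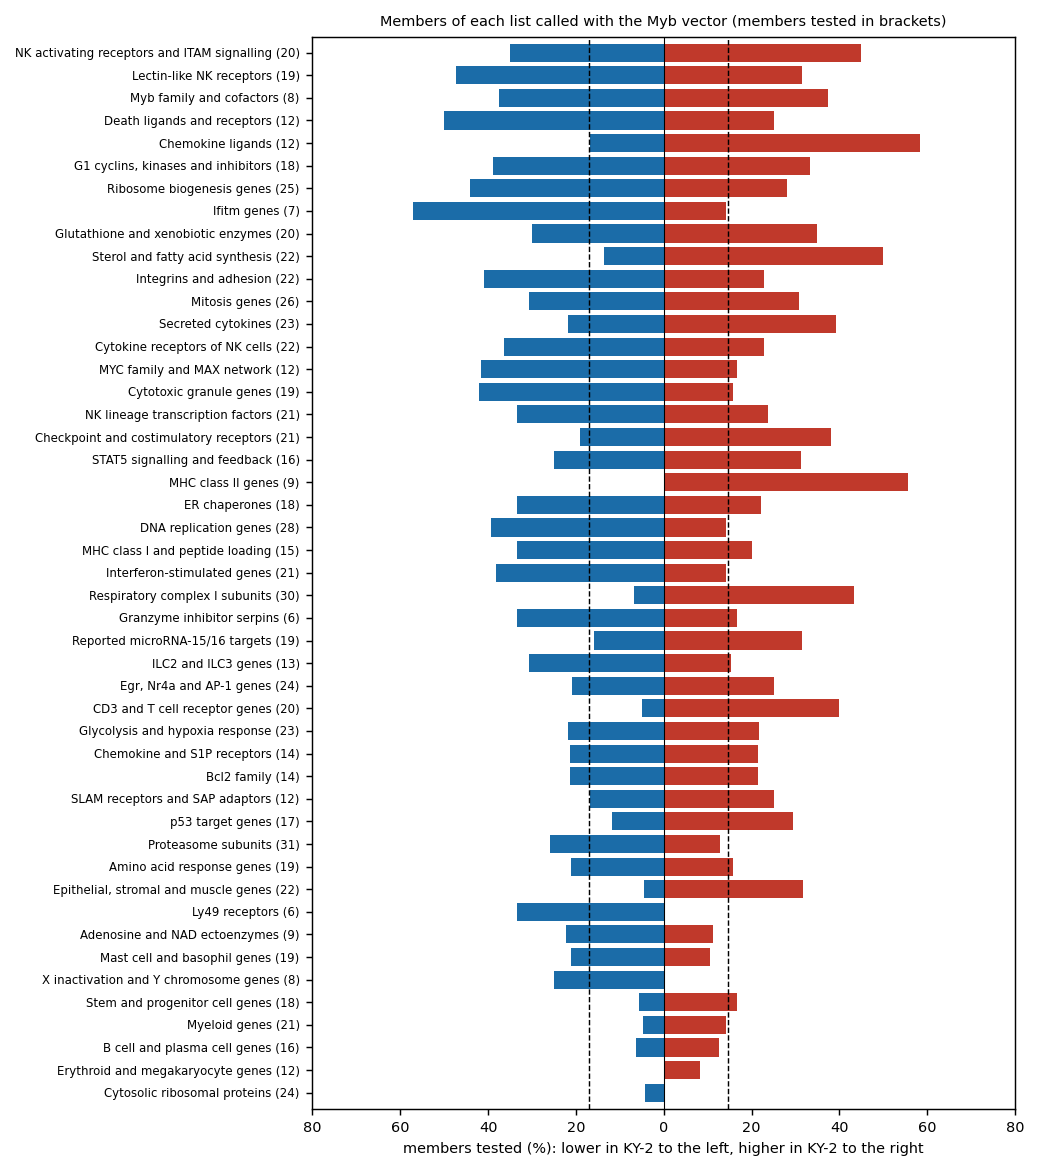
Share of the tested members of each of the 47 gene lists called higher (red, to the right) or lower (blue, to the left) in KY-2 with the Myb vector, in percent, with the number tested in brackets. Dashed lines mark the shares over all genes, 14.7% higher and 16.9% lower, and 7 lists lie under the overall 31.6%. All genes include dim ones. Over the 11259 genes whose highest group mean was above 5.37, 22.9% were higher and 26.9% lower, the closer background for lists with few low members.

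For 62 genes the line difference was wider with the Myb vector than with GFP, 43 of them higher and 19 lower in KY-2, and for 27 of the 62 it was not called with GFP at all. Ambn, which encodes the enamel protein ameloblastin, stood at 7.03, 7.16 and 7.26 in KY-2 with Myb, at 3.69 and 4.01 in KY-2 with GFP, and at 3.73 to 4.03 on all 7 KY-1 arrays. Its line difference was 3.26 ± 0.10 with Myb and -0.06 ± 0.13 with GFP, and the change was 3.31 ± 0.16 (limma adjusted p = 5.36e-06). Tuba8, an alpha tubulin, and Kap, a kidney androgen-regulated protein, had the same layout, with changes of 2.72 ± 0.17 and 2.42 ± 0.16. In each of them only the KY-2 Myb arrays were high.

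Prl2c5, a prolactin-family gene, and Sh2d1a, which encodes the SLAM adaptor SAP, reached 5.33 to 5.52 and 4.80 to 5.06 on the KY-2 Myb arrays, still near or under the array medians. Emp3, an epithelial membrane protein, was at 10.44 to 10.52 on those arrays, 8.17 and 8.33 in KY-2 with GFP, and 7.26 to 7.81 in KY-1 with either vector.

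Of the 19 genes with a wider difference and lower in KY-2, KY-1 had moved further between vectors in 12 and KY-2 in 7. Klrh1, an NK lectin-like receptor, was at 9.44 to 9.82 in KY-1 with Myb, 7.01 to 7.08 in KY-1 with GFP, and 6.4 to 6.69 on the 5 KY-2 arrays, a change of -2.45 ± 0.17. Itgax, which encodes CD11c, was at 7.69 to 7.92 in KY-1 with Myb and between 4.02 and 5.18 on all other arrays. Mcpt8 was at 6.79 to 7.39 in KY-1 with Myb, 5.17 to 5.54 in KY-1 with GFP and 3.86 to 4.35 in KY-2, and Gzmg at 6.59 to 7.19 in KY-1 with Myb and 5.12 to 5.75 elsewhere. Tmem273 was among the 7, as were Gzmd and Cxcr3: KY-1 stood for Tmem273 at 9.70 to 10.23 with either vector, and KY-2 at 7.99 and 7.76 with GFP and 5.25, 5.90 and 5.51 with Myb.

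Promoters of the genes with a wider difference were searched for the MYB core hexamers CAACTG or CAACGG or TAACTG or TAACGG on both strands of the 250 bases upstream. Of the 35 matched genes that were higher in KY-2, 12 hold one (34.3%), and of the 16 matched genes that were lower, 1 does, against 26.3% of the 27025 genes in the table. The following are shown as named genes with a match, with 100 bases for Tuba8 (chr6:121210634-121210733, plus strand) and Kap (chr6:133853668-133853767, minus strand) and 190 bases for Mcpt8 (chr14:56085198-56085387, minus strand), all from RefSeq on GRCm38.p6 and ending at the annotated start, with the hexamers in capitals.
Tuba8: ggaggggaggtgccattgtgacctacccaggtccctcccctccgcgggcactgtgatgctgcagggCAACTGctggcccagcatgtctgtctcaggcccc
Kap: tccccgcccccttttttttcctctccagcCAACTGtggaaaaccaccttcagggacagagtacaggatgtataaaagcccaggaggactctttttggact
Mcpt8: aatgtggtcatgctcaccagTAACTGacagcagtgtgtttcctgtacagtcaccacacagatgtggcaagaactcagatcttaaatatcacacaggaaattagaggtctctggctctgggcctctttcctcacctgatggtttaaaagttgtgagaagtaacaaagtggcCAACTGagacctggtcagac
The matches start 34 bases upstream in Tuba8, 71 in Kap, and 170 and 20 in Mcpt8. A match is a description of these letters and not a bound site.

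For 106 genes the difference was narrower with the Myb vector, and 28 of these were not called with Myb. Myb itself had the largest such change, 3.11 ± 0.11. Csn3, which encodes kappa casein, was 2.82 ± 0.14 higher in KY-2 with GFP but overlapped between the lines with Myb, at 6.48 to 6.74 in KY-1 and 6.27 to 6.73 in KY-2 (adjusted p = 0.527). Csn1s1 and Csn2, of the same neighbourhood, were called with both vectors. Cd3g was 7.68 ± 0.23 higher in KY-2 with GFP and 5.05 ± 0.19 with Myb, the KY-1 arrays lying at 4.16 to 5.27 with GFP and 6.92 to 7.38 with Myb.

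Tacr1, the receptor for substance P, was lower in KY-2 by -4.43 ± 0.10 with GFP and by -1.96 ± 0.08 with Myb, where KY-2 stood at 8.21 to 8.29 and KY-1 at 10.19 to 10.25. Cd36, a fatty acid transporter and scavenger receptor, was higher by 3.94 ± 0.12 with GFP and 1.66 ± 0.09 with Myb, and KY-2 stood at 4.82 to 5.11 with Myb, under the array medians. Adgrg3, an adhesion G protein-coupled receptor, went from -2.85 ± 0.10 to -0.79 ± 0.09. Over all 168 genes with a called change, KY-2 had moved further between vectors than KY-1 in 114 and KY-1 in 54.

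The line difference had opposite signs with the vectors, both called, for 9 genes. Igf1, insulin-like growth factor 1, was 0.48 ± 0.08 higher in KY-2 with GFP and lower by -1.0 ± 0.07 with Myb, with KY-1 at 5.62 to 5.72 and KY-2 at 4.63 to 4.72 on the Myb arrays. Tesc, a calcium-binding protein, stood at 8.43 to 8.47 in KY-1 and 7.97 to 8.0 in KY-2 with Myb, and at 8.56 to 8.69 and 9.12 to 9.27 with GFP. Pik3ap1, the PI3 kinase adaptor BCAP, and Plscr2, a phospholipid scramblase, also turned from higher to lower in KY-2, at -0.31 ± 0.08 and -0.36 ± 0.08 with Myb. Pde2a, a cyclic nucleotide phosphodiesterase, and Stxbp6, a syntaxin-binding protein, turned the other way, at 0.52 ± 0.11 and 0.37 ± 0.07. Apart from that of Igf1, these are small differences on the Myb arrays, though the arrays of the lines did not overlap for any of the 6.

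The number of genes in these classes depended on single GFP arrays: without KY-1 GFP replicate 3 the called changes numbered 109, and without KY-2 GFP replicate 1 they numbered 88. The wider class fell to 40 and 36, to 39 without KY-2 GFP replicate 2, and to 38 without the averaged KY-1 GFP pair. The narrower class fell to 69 and 52 without KY-1 GFP replicate 3 and KY-2 GFP replicate 1.

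Beside single genes, the medians of chromosomes differed between the lines by small amounts, which on several chromosomes came from parts of their length. Over the 11259 genes whose highest group mean was above 5.37, 22.9% were higher and 26.9% lower in KY-2. On chromosome 16 the median difference was 0.31, and 55.2% of its 353 genes were higher and 6.52% lower. Chromosome 19 had a median of 0.26 with 51.5% higher and 6.89% lower, and the X chromosome and chromosome 10 had medians of 0.20 and 0.19. On the other side, chromosome 17 had a median of -0.21 with 6.5% higher and 42.9% lower, and chromosomes 14 and 15 had medians of -0.20 and -0.19. Over all tested genes, dim ones included, the medians were smaller, at 0.10 for chromosome 16, 0.12 for chromosome 19 and -0.11 for chromosome 17.

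In all, 9 chromosomes had a positive and 11 a negative median. Each array's median over a chromosome's genes was also taken, after that array's median over the 11259 genes was taken off. By this measure the 3 KY-2 and 4 KY-1 Myb arrays did not overlap on any of the 20 chromosomes. The GFP arrays lay the same way without overlap on all 20. Chromosome medians with the vectors had a Pearson r of 0.965 over the 20. Chromosome 8 was 0.12 with Myb and 0.03 with GFP, and chromosome 19 was 0.26 against 0.38. Copy number was not measured here.

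**Figure D4:**
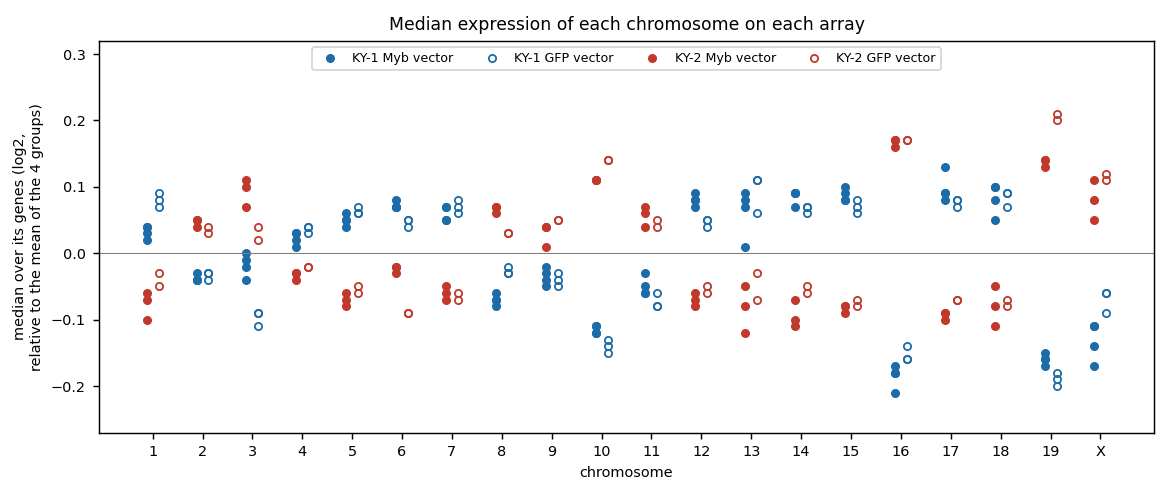
Median expression of each chromosome's genes on each array, in log2 units relative to the mean of the 4 groups (y axis), by chromosome (x axis), with 1 point per array, blue for KY-1, red for KY-2, filled for the Myb and open for the GFP vector. Each array's median over the 11259 genes was taken off first. On every chromosome the filled red points lie entirely above or entirely below the filled blue ones.

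Within several chromosomes the shifts came in blocks. Genes were taken in runs of about 50 in their RefSeq order (GRCm38.p6), which gave 225 runs, of which 209 had the same sign with both vectors (Pearson r = 0.96 over runs). On chromosome 12 the first 2 runs, from Rab10os to Tspan13, had medians of 0.87 and 0.92, with 42 and 33 of 50 genes higher, and the next run, from Bzw2, had -0.33, with 34 of 50 lower. On chromosome 16 the first 2 runs, from Zfp263 to Klhl22, had medians of 0.68 and 0.85, and the rest lay between 0.13 and 0.30. The sign or size thus changed from one run to the next.

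On chromosome 11 the first 4 runs, from Sfi1 to Cdkn2aipnl, had medians of 0.51 to 0.68, and a separate run from Ulk2 to Chd3 had 0.52. The last 4 runs of that chromosome lay between -0.20 and -0.12. On chromosome 10 the last 5 runs, from Reep6 onward, lay between 0.32 and 0.42 and the first 6 between 0.00 and 0.14. On chromosome 2 a stretch of 3 runs from Id1 to A530013C23Rik lay between -0.27 and -0.20, with the runs on either side at 0.07 and 0.04. Some chromosomes had the same sign in every run. Runs were all negative on chromosomes 5, 13, 14, 15, 17 and 18, and all positive on 8, 16, 19 and X. Chromosomes 17 and 19, for example, lay at -0.31 to -0.13 and 0.21 to 0.34.

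**Figure D5:**
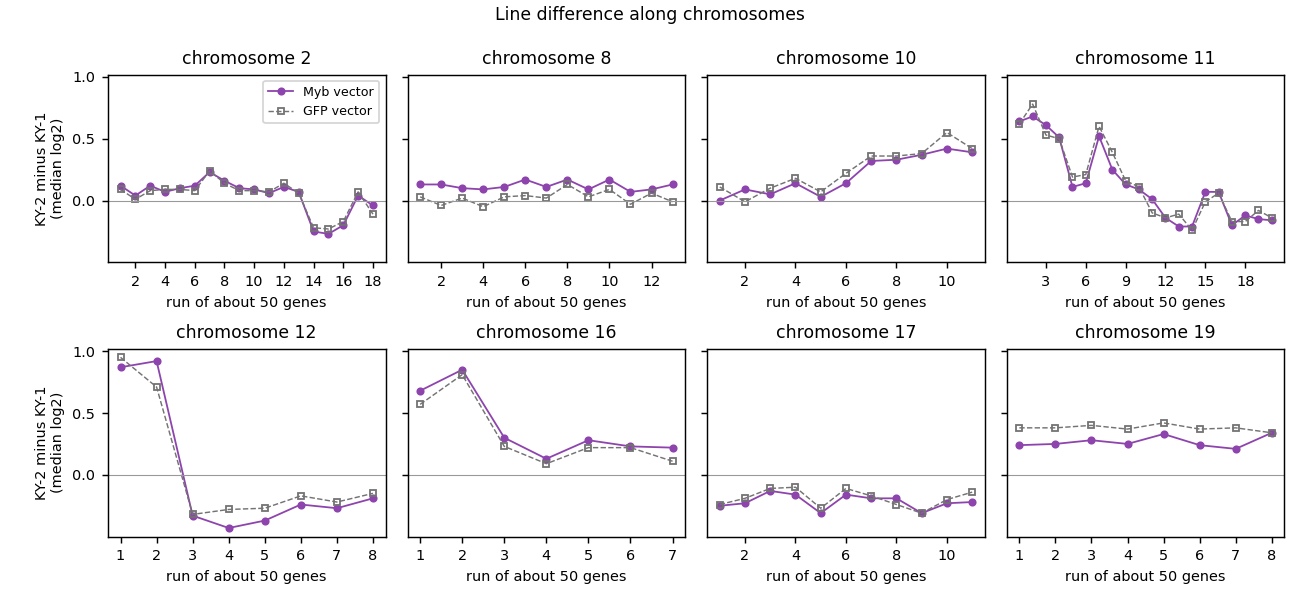
Median KY-2 minus KY-1 difference (log2, y axis) of runs of about 50 neighbouring genes in chromosome order (x axis), with the Myb vector in purple and the GFP vector in grey, for 8 chromosomes chosen after their values were seen. The first 2 runs of chromosome 12, at 0.87 and 0.92, are followed by a run at -0.33; with GFP the same 3 runs are at 0.95, 0.71 and -0.32.

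Some named genes differed by about as much as the genes around them. Rrm2 on chromosome 12, at 0.98, lay in a run with a median of 0.92, and Pdia6, an endoplasmic reticulum disulfide isomerase at 0.94, in the run with 0.87. Crebbp on chromosome 16, at 0.64, lay in a run with 0.68. Aurkb, a mitotic kinase on chromosome 11, was at 0.62 in a run with 0.52, and Mdm2 on chromosome 10, the p53 ubiquitin ligase, at 0.49 in a run with 0.42. Less the run's median these 5 genes were at 0.06, 0.07, -0.04, 0.10 and 0.07, and none passed the test (adjusted p = 0.332 to 0.723, with the run's median taken as free of error).

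Other genes of the same blocks differed by more. Mycn and Sdc1 on chromosome 12 were at 1.29 and 1.38 less the median of their run, Osm on chromosome 11 at 1.56, and Ndufs8 and Ndufv1 on chromosome 19 at 1.13 and 0.88. Csn1s1 was at 8.97, its own run having a median of -0.11. The complex I list had a median of 0.26 after each member's run was taken off, against 0.17 before, and the chemokine ligands 0.41 against 0.44. With all runs taken off, 6745 genes were called, 3250 higher and 3495 lower, and 4076 of the 6305 original calls were called in the same direction. This step was added after the data were seen.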

How the data were processed

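Total RNA of 12 samples was hybridised to Affymetrix arrays. The authors deposited log2 values, 1 per probe set and array. Per the submitters' processing notes, Partek and RMA were used; no version, option or genome build is stated in what was used here. The platform annotation gave a single symbol for 21789 of the 35556 probe sets and several for 1621, and left 12146 unnamed. The brightest probe set stood for each of 999 genes with more than 1, leaving 19938 genes, tested without a filter on low values.

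Line differences were tested by limma 3.58.1 (R 4.3.3) in a model of the 4 group means over 10 samples after averaging the close pairs, 6 residual degrees of freedom, Benjamini-Hochberg adjustment over all genes and a threshold of 0.05. SE are the model's. The number of arrays limits the precision. In simulated data on 19938 genes, 52.5% of 200 genes changed by 0.5, 95% of those changed by 1 and 100% of those changed by 2 (log2) were recovered. The simulation changed only 200 genes, against 31.6% of genes called here, and shuffled the variances among genes. Its adjusted threshold was therefore stricter, and these shares do not give the recovery in the data. Genes named were Myb, the 12 highest and 12 lowest whose Myb arrays did not overlap, the 6 largest changes per class, and the 4 smallest p per list; ranks over all genes skipped predicted genes and small RNAs. Markers, genes of picked-out neighbourhoods and some list members with a called change were named beside these. The comparison, the 47 lists and these rules were chosen with earlier results of these data known. Alternatives were other replicates, filters, normalizations, probe set rules, moderation, weights, a 1.5-fold minimum, a replicate block and leaving out each array.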

Additional observations from a re-analysis of the deposited data

Results flagged for a closer look

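The line difference changed between the vectors for 168 genes (limma, adjusted p under 0.05). The following are those with the largest changes of each class or among the highest and lowest genes. A positive change means that KY-2 minus KY-1 was greater with Myb than with GFP. Positive changes on the log2 scale were 3.31 for Ambn, 3.11 for Myb, 2.72 for Tuba8, 2.47 for Tacr1, 2.42 for Kap, 2.05 for Adgrg3, 1.97 for Prl2c5, 1.96 for Emp3, 1.835 for Sh2d1a, 1.13 for Pde2a and 1.07 for Stxbp6. Negative changes were -2.93 for Csn3, -2.735 for Tmem273, -2.63 for Cd3g, -2.45 for Klrh1, -2.28 for Cd36, -2.21 for Itgax, -1.93 for Mcpt8, -1.66 for Gzmg, -1.48 for Igf1, -1.35 for Gzmd, -1.22 for Pik3ap1, -1.05 for Plscr2 and -1.02 for Tesc. No group has more than 3 samples after averaging, so no single sample was tested as an outlier.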

How the results depend on the processing

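Among named line differences, named changes between vectors, list counts and chromosome medians, none reversed under the alternatives that were run. Signs of the other called genes were not compared. A minimum of 1.5-fold left 2312 calls with Myb (1269 higher, 1043 lower), 2716 with GFP, 1884 shared and 0 opposite. Changes between vectors numbered 427 with all 12 arrays as separate replicates, 337 with the filter on dim genes and 362 with trended moderation. Under the same 3 settings the wider class held 135, 108 and 123 genes, the narrower class 292, 229 and 239, and the opposite class 28, 20 and 15. Leaving out each array or averaged pair in turn gave 5457 to 6285 Myb calls, 4096 to 5825 GFP calls, 3531 to 4483 shared, 88 to 174 changes, 36 to 62 wider, 52 to 112 narrower and 8 to 13 opposite. A second quantile normalization called 3340 higher and 3054 lower, so that 52.2% of calls were higher against 46.6%. Of 5258 alternative values for named line differences, 5152 kept their direction and call, 83 lost and 23 gained the call. S100a8 and Cebpa, both low, lost it most often. Of 94 list counts, 68 were weaker or stronger under at least 1 alternative: of 2350 alternative values, 129 were weaker and 36 stronger. Chromosome medians kept their sign, but 26 of 480 alternative values, on 16 of the 20 chromosomes, were counted as moved. Same-numbered Myb arrays of the lines did not deviate together (correlations -0.108, -0.2 and 0.034), so the numbers were not taken as pairs. The GFP correlations (0 and -0.001) cannot decide this, because the deviations of 2 KY-2 GFP arrays mirror each other. KY-1 Myb replicate 2 and KY-2 Myb replicate 1 had a correlation of 0.274, and whether arrays shared a batch was not tested. A replicate block on all 12 arrays gave 2840 higher and 3285 lower calls and 14 opposite genes. Dim genes have no detection call, which limits what low levels show.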
